A study of Mus musculus with 405 samples.

Results

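Interferon-stimulated genes were followed through a screen of chemicals in mouse cortical cultures. The 9 genes were taken by name as a panel of the type I interferon response: Ifit1, Ifit2, Ifit3, Isg15, Ifih1, Irf7, Irf9, Stat2 and Usp18. All 9 were among the 23893 genes of a count table for pyraclostrobin, and 4 of them (Ifit2, Irf9, Stat2 and Ifih1) were among the 13304 genes of the screen table. The other 5 were not listed in the screen table, for which the study kept genes above a minimum length that were detected in nearly all samples.

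Cultures were made from the cortex of embryonic day 15 hybrid mice, the offspring of C57BL/6J dams and CAST/EiJ males, and were exposed for 24 h from 7 days in vitro. Every culture, vehicle included, therefore carried the same hybrid genotype and held neurons together with glia. The screen table holds 393 libraries: 49 of vehicle (dimethylsulphoxide) and 344 of 297 chemicals, most of them pesticides from a toxicology collection. Of the chemicals, 257 were given at 10 µM, 26 at 1 µM, 9 at 0.1 µM, 3 at 0.01 µM and 2 at 0.3 µM, and 282 had a single library, 13 had 2, diethyltoluamide had 4 and topotecan had 32. The count table holds 4 libraries of pyraclostrobin at 0.1 µM and 4 of vehicle. Pyraclostrobin is a strobilurin fungicide that blocks mitochondrial complex III, and topotecan is an inhibitor of topoisomerase 1.

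Type I interferons are secreted after a cell senses foreign or displaced nucleic acid. They bind the Ifnar receptor, whose kinases Jak1 and Tyk2 phosphorylate factors of the STAT family, Stat2 among them. Stat2 and Irf9 are parts of the factor ISGF3, which binds interferon-stimulated response elements upstream of its target genes and raises their transcription. Among the targets are antiviral effectors, further sensors, the factors themselves and feedback inhibitors such as Usp18. In the brain, neurons, astrocytes and microglia can all respond to interferon.

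The promoters of the 9 genes were searched for the core of that response element, GAAA followed after 2 bases of any kind by GAAA, or its reverse complement, TTTC followed after 2 bases by TTTC, on both strands of a window from 250 bases before to 50 bases after the transcription start, taken from RefSeq on GRCm38.p6. At least 1 such core lay in 5 of the 8 genes with a window, and in 3.44% of all 32851 promoter windows. Stretches from 4 of these windows are printed to show the matches to that core, with each core in capitals. Whether these matches act as response elements was not tested. Coordinates are those of mm9, the build of the deposited files, in which each window was found once without a mismatch.

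Ifit1: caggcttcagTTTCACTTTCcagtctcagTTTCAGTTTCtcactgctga
Ifit3: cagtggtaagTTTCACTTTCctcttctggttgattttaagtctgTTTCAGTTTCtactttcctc
Isg15: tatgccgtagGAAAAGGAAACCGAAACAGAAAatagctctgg
Stat2: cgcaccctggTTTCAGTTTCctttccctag

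The Ifit1 stretch is chr19:34715265-34715313 on the plus strand, from -114 to -66 with the first transcribed base at 0, and holds 2 cores in the same orientation. The Ifit3 stretch is chr19:34657853-34657916 on the plus strand, from -166 to -103, and also holds 2 cores. The Isg15 stretch is chr4:155574974-155575015 on the minus strand, from -88 to -47, where 3 overlapping cores run together. The Stat2 stretch is chr10:127707322-127707351 on the plus strand, from -232 to -203, and holds 1 core. The match in Ifih1 lay after the transcription start, none was found in the windows of Ifit2, Irf7 and Irf9, and Usp18 was named only. The absence of a match says only that these letters are not in the window searched. The 3 Ifit genes lie together on chromosome 19, Ifit2 at 34625184-34650909, Ifit3 at 34658021-34663221 and Ifit1 at 34715361-34724499, and the other 6 genes are on chromosomes 2, 4, 6, 7, 10 and 14. These spans are from the GENCODE annotation of mm9, whose starts of Ifit1, Ifit3 and Stat2 differ from those of RefSeq that the windows use.

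Library totals in the count table ran from 2409623 to 7833440 counts, with vehicle 3 and vehicle 4 deeper than the other 6. Vehicle 1 stood apart from the other vehicle libraries, with correlations across genes of 0.928 to 0.937 against 0.984 to 0.992 among the other 3. Pyraclostrobin 1 stood apart likewise, at 0.946 to 0.956 against 0.973 to 0.976. Both carry the same number in the table. The tests of the 9 genes and the numbers of pathway genes called were also computed without each of them. Changes of other single genes and the marker sums are given with every library kept. All 8 neuron markers were detected in the cultures. The study gives fewer biological replicates than libraries in one place and sample replicates in another, and does not say which libraries share a culture, so the p-values may rest in part on technical spread.

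The first comparison asks how a complex III inhibitor moved these genes. The antiviral effector gene Ifit2 rose in pyraclostrobin cultures, whereas Stat2, a component of ISGF3, fell. Most fits that left out 1 library did not keep the call of Stat2. Levels of 6 genes in CPM (counts scaled to library size with TMM factors) (Ifit2, Ifit3, Isg15, Ifih1, Irf7 and Irf9) were higher in every pyraclostrobin library than in any vehicle library, those of Stat2 were lower in every one, and those of Ifit1 and Usp18 overlapped. Among all genes with a count, 14.6% were higher without overlap and 11.7% lower. Leaving out a library cannot undo a complete separation, so only Ifit1 and Usp18 could have changed. Both still overlapped without vehicle 1 and without pyraclostrobin 1. By edgeR's quasi-likelihood test, 3 of the 9 genes passed the filter on low counts, and among these Ifit2 rose and Stat2 fell at an adjusted p under 0.01, beside 12.1% of all tested genes higher and 9.22% lower. Without the filter 4 of the 9 rose (Ifit1, Ifit2, Ifit3 and Irf7) and Stat2 fell, beside 8% and 7.95% of all genes. The median log2 change of the 9 genes in that fit was 2.11, beside -0.04 for all genes. Leaving out 1 library in that fit, an alternative chosen after seeing the data, left 5 of the 9 called higher without vehicle 1, 2 without pyraclostrobin 1, vehicle 2 or vehicle 4, and 1, Ifit2, without pyraclostrobin 3. The values that follow are from the fit without the filter for all genes but Ifit2, Irf9 and Stat2.

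**Figure D1:**
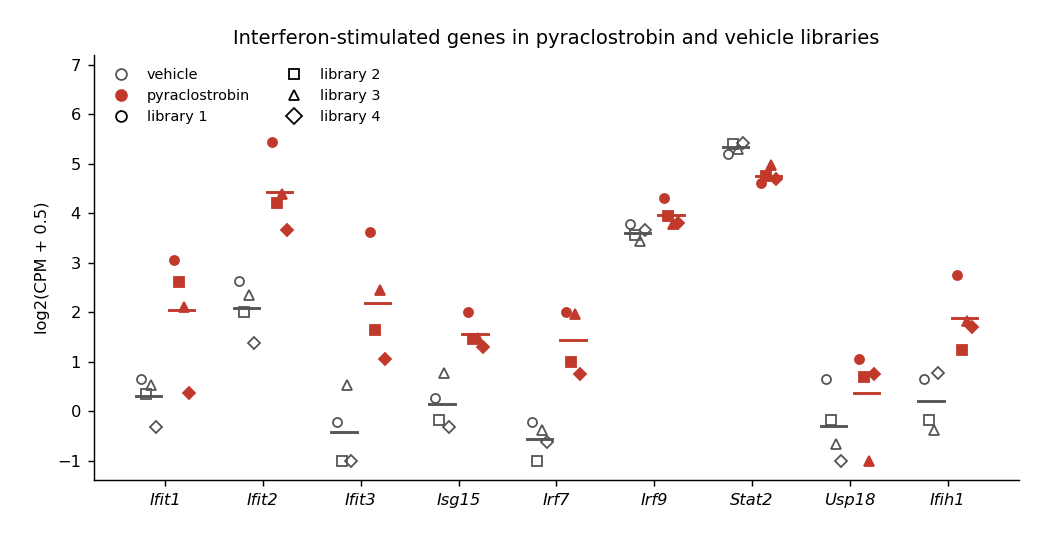
Level of each of the 9 interferon-stimulated genes, as log2 of CPM plus 0.5, in the 4 vehicle libraries (open grey) and the 4 pyraclostrobin libraries (filled red), with a line at the mean of each group and a symbol for each library number. Red points lie above all grey points for Ifit2, Ifit3, Isg15, Irf7, Irf9 and Ifih1, below them for Stat2, and among them for Ifit1 and Usp18.

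Ifit2, whose product binds RNA and restricts its translation, had the largest change of the 3 genes past the filter. Its level was 42.98, 17.95, 20.5 and 12.2 CPM in pyraclostrobin libraries 1 to 4 and 5.68, 3.49, 4.56 and 2.09 in vehicle libraries 1 to 4. The lowest pyraclostrobin library thus lay above the highest vehicle library, and pyraclostrobin 1 lay well above the other 3. The rise was 2.60 on the log2 scale (SE 0.42, edgeR adjusted p = 0.000829, n = 4 against 4), from 3.96 ± 1.53 to 23.4 ± 13.5 CPM (SD). It held without pyraclostrobin 1, at 2.08, and without vehicle 1, at 2.77.

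Ifit1 and Ifit3 encode related proteins that bind viral RNA. Ifit1 had 20, 15, 10 and 2 counts in pyraclostrobin libraries 1 to 4 and 3, 2, 7 and 2 in vehicle libraries 1 to 4. Pyraclostrobin 4 lay within the vehicle range, and the other 3 above it. The change of Ifit1 without the filter was 2.47 (SE 0.60, edgeR adjusted p = 0.00688, n = 4 against 4). That call was lost in 6 of the 8 fits that left out 1 library, with edgeR adjusted p of 0.0151 to 0.0340. These were the fits without pyraclostrobin 1, 2 or 3 and without vehicle 2, 3 or 4. The call of Ifit1 was also lost in DESeq2 with the number in the column names as a block. Ifit3 had 30, 7, 13 and 4 counts under pyraclostrobin and 1, 0, 7 and 0 under vehicle. In CPM, the smallest of its pyraclostrobin values, 1.57, exceeded the largest vehicle value, 0.939. Its change was 3.51 (SE 0.79, edgeR adjusted p = 0.00448, n = 4 against 4), and the call was lost without pyraclostrobin 1 (0.0268), pyraclostrobin 3 (0.0125), vehicle 2 (0.0109) or vehicle 4 (0.0109). Without vehicle 3, which held 7 of the 8 vehicle counts, the fitted change was 5.32. Ifit3 has a near copy in the mouse genome, and how reads common to both were counted is not given in the sources used here, so the value of Ifit3 is uncertain.

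Isg15 encodes a ubiquitin-like protein that is conjugated to other proteins in response to interferon. Its counts were 9, 6, 6 and 5 under pyraclostrobin and 2, 1, 9 and 2 under vehicle, which in CPM gave 2.50 ± 0.692 against 0.651 ± 0.411 (SD, n = 4 each). In CPM all 4 pyraclostrobin libraries were higher, at 1.97 or more against 1.21 or less. The change of 1.69 (SE 0.53) had an edgeR adjusted p of 0.0284 and did not pass 0.01. Ifih1 encodes MDA5, a cytoplasmic sensor of double-stranded RNA. Its level was 6.25, 1.87, 3.03 and 2.75 CPM under pyraclostrobin and 1.07, 0.388, 0.268 and 1.20 under vehicle, again without overlap. Its change was 2.11 (SE 0.56) with an edgeR adjusted p of 0.0122, so that it missed the threshold. Of the fits that left out 1 library it passed only in that without vehicle 1 (edgeR adjusted p = 0.00608). It also passed in DESeq2 (adjusted p = 0.00936) and in edgeR without the filter with the column number as a block. In DESeq2 with that block it did not pass. The highest adjusted p over these edgeR and DESeq2 alternatives was 0.0568.

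Among the factors that drive the response, Irf7 amplifies interferon transcription once it has been induced. Irf7 had 9, 4, 9 and 3 counts in pyraclostrobin libraries and 1, 0, 2 and 1 in vehicle libraries, so that no vehicle library reached the lowest pyraclostrobin library. The ratio of summed counts per total was 13.01, with an exact 95% interval of 4.49 to 51.4 that covers counting error only. The change of 3.26 (SE 0.67) had an edgeR adjusted p of 0.00225, which rose to 0.0110 without pyraclostrobin 3. The call of Irf7 was also lost in DESeq2 with the column number as a block.

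Irf9, the DNA-binding subunit of ISGF3, differed little. It was at 19.1, 15.0, 13.3 and 13.4 CPM under pyraclostrobin and at 13.1, 11.2, 10.3 and 12.1 under vehicle. The groups did not overlap, but the nearest libraries differed by only a small margin. The difference of 0.38 (SE 0.20) did not pass the test (edgeR adjusted p = 0.155).

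Stat2, the partner of Irf9 in ISGF3, moved the other way. It was at 23.8, 26.6, 31.1 and 25.2 CPM under pyraclostrobin and at 35.9, 41.9, 38.9 and 42.1 under vehicle. Each pyraclostrobin library was below each vehicle library, and Stat2 was the deepest of the 9 genes, with 1059 counts in all. It fell by 0.57 on the log2 scale (SE 0.14, edgeR adjusted p = 0.00932), near the threshold. Leaving out 1 library ended the call in 6 of 8 cases, with edgeR adjusted p of 0.0156 without pyraclostrobin 1, 0.0190 without pyraclostrobin 2, 0.0210 without pyraclostrobin 4, 0.0272 without vehicle 2, 0.0282 without vehicle 3 and 0.0361 without vehicle 4. With the column number as a block the call was also lost in edgeR past the filter and in DESeq2. It was kept with that block in edgeR without the filter.

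Usp18 removes Isg15 from proteins and damps signalling at the interferon receptor. It had 4, 3, 0 and 3 counts under pyraclostrobin and 3, 1, 1 and 0 under vehicle. The libraries overlapped and the difference did not pass the test (edgeR adjusted p = 0.268, n = 4 against 4). The ratio of its summed counts per total was 4.16, with an exact 95% interval of 1.30 to 15.5 that covers counting error only. In exact two-sided permutation tests on log2 CPM, Ifit1 gave p = 0.0857 and Usp18 gave 0.286, and for the other 7 genes complete separation of 4 against 4 libraries fixes p at its smallest value, 0.0286.

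Other genes of the interferon pathway rose with the effectors. Of 115 such genes, all were in the count table, 105 had a count and 54 passed the filter. Past the filter 27 rose and 0 fell, with a median change of 1.24. Without the filter 35 rose and 1 fell, with a median of 1.53 beside -0.04 for all genes. The filter can be met by the 4 pyraclostrobin libraries alone, so genes low in vehicle could enter it through their rise. Without pyraclostrobin 1, 50 of the 54 were tested. Counts and medians past the filter, here and by role below, are not free of that selection. Past the filter 19 rose and 1 fell without pyraclostrobin 1, and 33 rose and 2 fell without vehicle 1. In the fit without it the number that rose dropped to 22 when vehicle 3 was left out. At the same edgeR threshold past the filter, 12.1% of all genes were higher and 9.22% lower. Interferon ligands were at the limit of detection: the 7 listed had 1 count in all 8 libraries together, of Ifnb1 in pyraclostrobin 4.

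Among 8 receptor and kinase genes past the filter, 2 rose. Il10rb, a receptor chain that interferon lambda and interleukin-10 use, rose by 2.88 (edgeR adjusted p = 0.000354), from 1.00 ± 0.348 to 8.29 ± 3.46 CPM. At that vehicle level it passed the filter mainly through the pyraclostrobin libraries. Ifngr1, a chain of the interferon gamma receptor, rose by 1.18 (edgeR adjusted p = 0.00754). The type I receptor chain Ifnar1 gave 0.13 (edgeR adjusted p = 0.378), and the kinase Jak1 gave -0.43 (edgeR adjusted p = 0.0126), neither past the threshold. When 1 library was left out, 1 of the 8 was called higher in every case but that without vehicle 1.

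Among the STAT and IRF factors past the filter, Irf2, which binds the same elements, rose by 1.06 (edgeR adjusted p = 0.00126), from 7.86 ± 0.902 to 16.3 ± 1.21 CPM. Of 6 sensor and adaptor genes, 3 rose: Mavs, the mitochondrial adaptor of the RNA sensors, by 2.54 (edgeR adjusted p = 6.82e-05), the endosomal RNA receptor Tlr3 by 2.53 (0.000714) and Ddx58, which encodes RIG-I, by 2.39 (0.000549). Mavs went from 3.40 ± 0.742 to 20.4 ± 5.71 CPM.

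Other effectors formed the largest group, in which 14 of 18 past the filter rose and none fell, with a median of 1.98. Without pyraclostrobin 1 the number that rose was 8 of 16, and without pyraclostrobin 3 it was 9 of 16. With every library kept and no filter on low counts, 19 of 49 rose and 0 fell. Eif2ak2, which encodes the RNA-dependent kinase PKR, rose by 2.92 (edgeR adjusted p = 0.000278), from 3.10 ± 1.06 to 23.1 ± 11.9 CPM. The ADP-ribosyltransferase gene Parp14 rose by 2.77, the GTPase gene Irgm1 by 2.73, the ubiquitin ligase gene Trim25 by 2.51 and Parp9 by 2.34, each with an edgeR adjusted p of 0.000750 or less. Adar and Cmpk2 did not pass, at -0.32 and -0.29.

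Antigen presentation genes rose in 4 of 8 cases. B2m, the light chain of MHC class I, rose by 2.13 (edgeR adjusted p = 0.00521), the peptide transporter genes Tap2 and Tap1 by 2.02 and 1.63, and Tapbp by 1.14. Without vehicle 2 the number that rose was 2 of 8, and without vehicle 3 it was 2 of 7. None of the 4 feedback genes past the filter passed the test. Of 5 NF-kappa B and chemokine genes, Ccl2 rose by 2.30 (edgeR adjusted p = 0.00310) and Cxcl1 by 2.00 (0.00266), whereas Cxcl10, a chemokine induced by interferon, gave 1.73 with an edgeR adjusted p of 0.0153. Of this list 0 of 5 were called higher without vehicle 3, and 1 of 5 without pyraclostrobin 3 or vehicle 4.

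**Figure D2:**
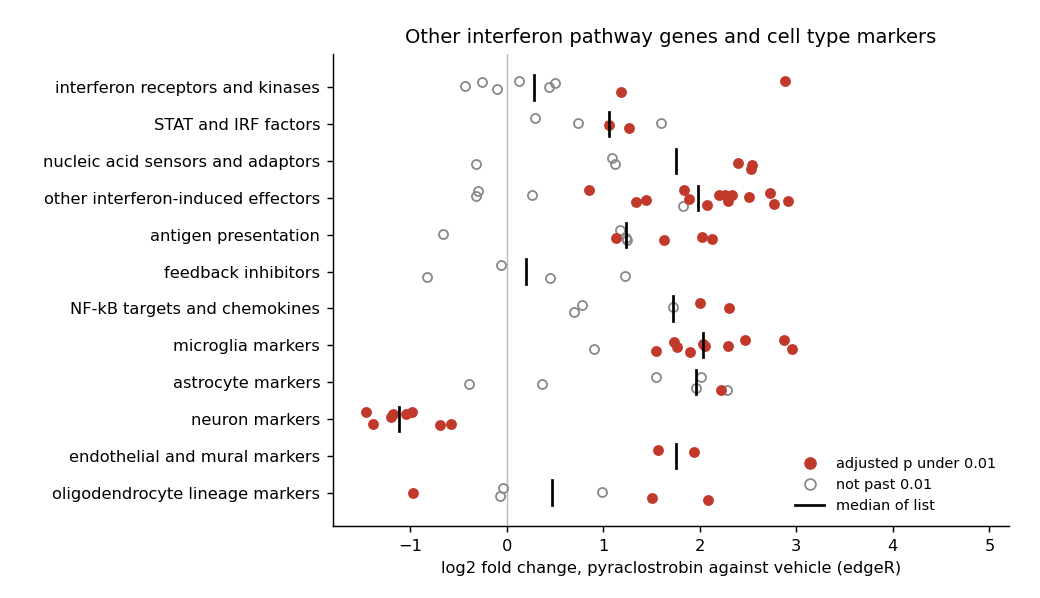
Log2 fold change between pyraclostrobin and vehicle for each other interferon pathway gene and each cell type marker past the count filter (one point per gene, by role), filled red where the edgeR adjusted p was under 0.01, with a black line at the median of each list. Effectors lie mostly to the right of 0 (14 of 18 filled), feedback genes include none filled, and all 8 neuron markers lie to the left.

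Markers of cell types moved with these genes. Microglia markers summed to 168 to 290 CPM in pyraclostrobin libraries and 45.1 to 67.5 in vehicle libraries, and 10 of 11 past the filter rose. Neuron markers summed to 3829 to 4917 against 9193 to 9558, and 8 of 8 fell. Astrocyte markers summed to 1050 to 3603 against 721 to 1219, with 1 of 7 higher, and endothelial and mural markers to 25.8 to 35.6 against 8.58 to 14.2, with 2 of 2 higher and the endothelial gene Cldn5 at 0 in every library. Oligodendrocyte lineage markers summed to 195 to 310 against 107 to 202. Pyraclostrobin 1, highest of all libraries in each interferon-stimulated gene but Stat2, had the lowest microglia sum among the pyraclostrobin libraries, 168, and the highest astrocyte sum, 3603. Among vehicle libraries, vehicle 1 was highest in Ifit1, Ifit2, Irf7, Irf9 and Usp18. It had both the highest microglia sum of that group, 67.5, and the highest astrocyte sum, 1219. Vehicle 3 was highest of the group in Ifit3 and Isg15, and vehicle 4 in Ifih1. The part of these markers in the interferon results was not tested, and in bulk RNA fewer cells of a type cannot be told apart from less RNA per cell.

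In the screen, values are log2 deviations that the study had normalised, centred on each gene's median and freed of batch effects. Here they are given relative to the median of the 49 vehicle libraries for that gene. Vehicle cultures themselves varied: Ifit2 ran from -0.96 to 0.61, Irf9 from -0.84 to 0.57, Stat2 from -0.60 to 0.31 and Ifih1 from -1.36 to 1.41. Ifih1, with an SD of 0.569, had a wider vehicle spread than 87.4% of all genes, whereas Stat2, with an SD of 0.218, was wider than 41.2%. A chemical therefore had to move Ifih1 much further than Stat2 to leave the vehicle range.

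The second comparison set topotecan against vehicle. Ifit2 and Irf9 were higher in topotecan libraries, and Stat2 and Ifih1 did not pass the test. The lowest, median and highest Ifit2 values among the 32 topotecan libraries were -0.75, 0.48 and 1.16, and 30 of 32 lay above the vehicle median. The groups overlapped, with 10 topotecan libraries above the highest vehicle library. Ifit2 rose by 0.49 (SE 0.085, limma adjusted p = 1.01e-06).

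Irf9 ran from -0.33 to 0.85 with a median of 0.39 under topotecan, with 29 of 32 libraries above the vehicle median. It rose by 0.35 (SE 0.059, limma adjusted p = 4.54e-07). Stat2 ran from -0.59 to 0.37 (difference -0.05, limma adjusted p = 0.501) and Ifih1 from -1.52 to 1.29 (difference 0.20, limma adjusted p = 0.211). Thus 2 of the 4 genes rose and none fell, beside 24.9% of all genes higher and 20.9% lower, and their median difference was 0.28 beside 0.03.

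Of the 59 other pathway genes in the screen, 21 rose and 4 fell under topotecan, beside 24.9% of all genes higher and 20.9% lower. Their median was 0.17 beside 0.03 for all genes. The largest rises were in Irf3, a factor that acts directly downstream of the sensors, by 0.79 (limma adjusted p = 3.96e-09), and in Cmpk2, a mitochondrial nucleotide kinase gene induced by interferon, by 0.78 (limma adjusted p = 2.11e-16). Receptor genes rose in 5 of 8 cases, with Il10rb at 0.52, Ifngr2 at 0.25, Ifngr1 at 0.23, and Jak2 and Ifnar1 both at 0.15, and Jak1 was lower, at -0.09. Stat3 rose by 0.10. Of 9 sensor genes 1 rose, Tlr3 by 0.44, a smaller share than that of all genes.

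Effectors rose in 8 of 20 cases and included Igtp at 0.43, Lgals3bp and Pml at 0.42 and Dtx3l at 0.40, with the RNA-editing gene Adar lower at -0.09. In antigen presentation 2 of 8 genes rose, Tapbp by 0.26 and Psmb10 by 0.21, a share like the 24.9% of all genes. The feedback gene Socs3 rose by 0.42, Ptpn2 and Pias1 fell by 0.25 and 0.21, and Tnfaip3, an inhibitor of NF-kappa B, rose by 0.37. In the same libraries 7 of 8 neuron markers and 5 of 7 astrocyte markers fell, and 1 of 7 microglia markers rose and 1 fell. Their part in the values above was not tested.

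The third comparison took 11 inhibitors of respiratory complexes I and III, grouped by known target, with 1 value per chemical. Ifit2 was higher in them as a class. Famoxadone gave Ifit2 values of 0.93 and 0.81 in its 2 libraries, fenamidone 0.67 and 0.98, trifloxystrobin 0.73 and pyraclostrobin 0.75. Rotenone gave 0.81 and 0.48, fenpyroximate 0.49, fluoxastrobin 0.30 and tebufenpyrad 0.28. Cyazofamid at 0.08, pyridaben at 0.02 and azoxystrobin at 0.03 and -0.20 lay near the vehicle median.

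These concentrations were not matched, since famoxadone, fenamidone, trifloxystrobin and cyazofamid were given at 10 µM, fluoxastrobin at 1 µM, azoxystrobin, pyraclostrobin, fenpyroximate and pyridaben at 0.1 µM, and rotenone and tebufenpyrad at 0.01 µM. Of the 11, 10 lay above the vehicle median and 5 above the highest vehicle library. The class difference was 0.49 (SE 0.12, limma adjusted p = 0.00151) and remained between 0.45 and 0.54 when each chemical was left out. Against all other chemicals in place of vehicle it was 0.32 (limma adjusted p = 0.0299). Irf9 gave -0.05 (limma adjusted p = 0.716), Stat2 -0.11 (0.374) and Ifih1 0.30 (0.216). So 1 of the 4 genes rose and none fell, beside 10% of all genes higher and 16.9% lower. Stat2 was lowest under fenpyroximate, at -0.96, the lowest Stat2 value of any library.

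With the class split after the data were seen, the 7 complex III inhibitors gave Ifit2 a difference of 0.54 (SE 0.15, limma adjusted p = 0.00643) and the 4 complex I inhibitors 0.40 (SE 0.19, limma adjusted p = 0.234), and the difference between them was not tested. Of the 59 pathway genes, 8 rose and 2 fell over the whole class, beside 10% of all genes higher and 16.9% lower. The number that rose was thus near the share of all genes. The median was 0.19 beside -0.01 for all genes. The rises were 0.60 in Tlr3, 0.52 in its adaptor gene Ticam1, and 0.49 and 0.44 in the antiviral membrane protein genes Ifitm2 and Ifitm3. They were 0.46 in B2m, 0.38 in Mavs, 0.37 in Irf2 and 0.27 in Tapbp. Mb21d1, which encodes the DNA sensor cGAS, fell by 0.50, and Jak1 fell by 0.15. In these chemicals 8 of 8 neuron markers fell, 5 of 7 astrocyte markers rose and 3 of 7 microglia markers rose, and their part was not tested.

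All chemicals other than topotecan were then set against vehicle. None of the 4 genes passed the test, beside 1.95% of all genes higher and 3.65% lower. Ifit2 came nearest, at 0.18 (SE 0.059, limma adjusted p = 0.0504), and gave 0.18 with a limma adjusted p of 0.0477 when single libraries replaced the values per chemical. Stat2 was at 0.13 (SE 0.044, limma adjusted p = 0.0656), Irf9 at -0.02 (0.820) and Ifih1 at -0.05 (0.823). The pathway gene H2-D1, of MHC class I, rose by 0.19 (limma adjusted p = 0.0106), and Jak1 fell by 0.06 (limma adjusted p = 0.0270). These 3 screen comparisons share the 49 vehicle libraries, so they are not independent of each other.

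**Figure D3:**
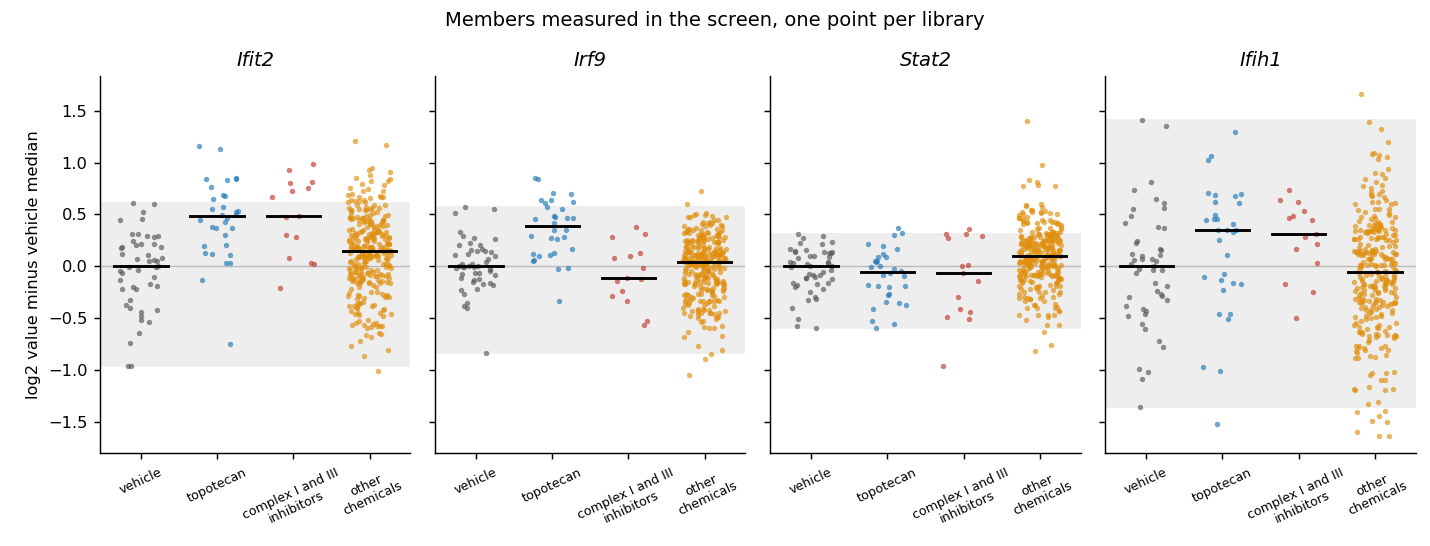
Log2 value minus the vehicle median of Ifit2, Irf9, Stat2 and Ifih1 in every screen library (one point each), for vehicle, topotecan, complex I and III inhibitors and other chemicals, with a black line at each group's median and the range of the vehicle libraries shaded. Topotecan points sit high for Ifit2 and Irf9 (medians 0.48 and 0.39), and single other chemicals leave the shaded range for Ifit2 and Stat2.

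Which libraries left the vehicle range differed by gene. Among the 312 libraries of other chemicals, Stat2 lay above the highest vehicle library in 57 (18.3%) and Ifit2 in 36 (11.5%), against 2 for Irf9 and 1 for Ifih1. The median gene did so in 1.28% of these libraries, and 99.9% of genes had a lower share than Stat2 and 98.7% a lower share than Ifit2. Over the 4 genes together, 96 of 1248 pairs of gene and library (7.69%) exceeded the highest vehicle library, beside 2.17% over all genes. For topotecan it was 20 of 128 (15.6%), beside 4.08%. Below the lowest vehicle library lay 17 of 1376 pairs over all 344 chemical libraries (1.24%), beside 3.17% over all genes, and above the highest lay 116 of 1376 (8.43%), beside 2.35%. Most chemicals had 1 library, so no test was made.

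The 4 genes were seldom high in the same library. Of 344 chemical libraries none had all 4 above the highest vehicle library, 1 of topotecan had 3, 9 had 2, 95 had 1 and 239 had 0. The highest Ifit2 values were those of camptothecin, a topoisomerase 1 inhibitor like topotecan, at 1.20 and of the organophosphate chlorethoxyfos at 1.17. For Stat2 they were difenoconazole at 1.40 and cyprodinil at 0.97. For Irf9 the highest were 2 topotecan libraries, both at 0.85, then disulfoton at 0.72, and for Ifih1 atrazine at 1.67. These were picked out after their values were seen.

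An interferon score, so named for its genes, was taken as the median of the 4 genes in each library. These genes were only weakly related over all libraries, with pairwise rho of -0.16 to 0.17. A high score is therefore not by itself an interferon signal. Vehicle libraries ran from -0.37 to 0.29 with a median of -0.01, topotecan libraries from -0.08 to 0.71 with a median of 0.24, and libraries of other chemicals from -0.50 to 0.73 with a median of 0.07. The highest vehicle score was exceeded by 14 of 32 topotecan libraries and 30 of 312 others. All 4 genes lay above their vehicle medians in 4 vehicle, 3 topotecan and 37 other libraries.

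The 10 highest scores belonged to the pyrethroid esfenvalerate at 0.73, topotecan 27 at 0.71, topotecan 15 at 0.65, camptothecin at 0.58, topotecan 16 at 0.50, topotecan 19 at 0.49, and topotecan 18, topotecan 2, the herbicide fluroxypyr and topotecan 10 at 0.48. Esfenvalerate at 10 µM had Ifit2 at 0.73, Stat2 at 0.83, Ifih1 at 0.73 and Irf9 at 0.03, so its score did not rest on Irf9. Camptothecin had Ifit2 at 1.20, Irf9 at 0.45, Ifih1 at 0.72 and Stat2 at -0.11. Fluroxypyr had all 4 above the vehicle median, at 0.54, 0.60, 0.22 and 0.43 for Ifit2, Irf9, Stat2 and Ifih1. Irinotecan at 10 µM, another topoisomerase 1 inhibitor, had Ifit2 at 0.39.

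Taken as the mean of the 4 genes, an alternative chosen after seeing the data, the score put 5 of these libraries among its 10 highest, with topotecan 27 first at 0.614, then atrazine at 0.583, topotecan 22 at 0.581 and esfenvalerate at 0.580.

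The lowest chemical scores were those of thiophanate at -0.50, imazethapyr at -0.48 and propiconazole at -0.47. Among vehicle cultures the highest were vehicle 29 at 0.29, vehicle 23 and vehicle 9 at 0.26, vehicle 28 at 0.24 and vehicle 8 at 0.20, and the lowest were vehicle 32 at -0.37, and vehicle 39 and vehicle 24 at -0.26. Vehicle 32 had a low Irf9 of -0.84 and Stat2 of -0.58 beside an Ifit2 of 0.45, so that its genes did not move together.

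**Figure D4:**
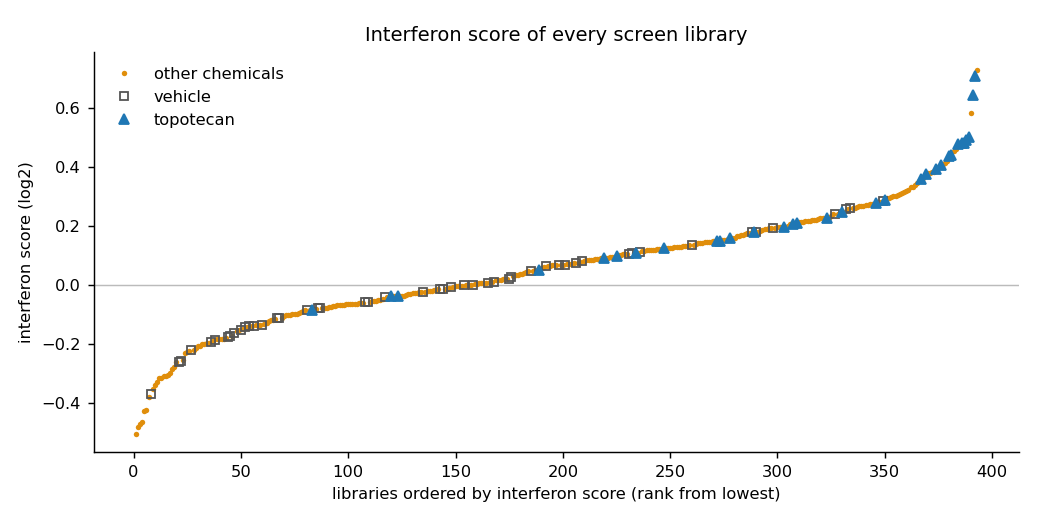
Interferon score (median over Ifit2, Irf9, Stat2 and Ifih1 of the log2 value minus the vehicle median) of all 393 screen libraries in rank order, with vehicle as grey squares, topotecan as blue triangles and other chemicals as orange dots. Topotecan libraries gather at the right, with 14 of 32 above the highest vehicle score of 0.29, and vehicle squares are spread through the middle.

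The 13 chemicals with 2 libraries show how far a single library can be read. Their 2 libraries differed by a median of 0.222 in Ifit2 (0.037 to 0.478), 0.291 in Irf9 (0.013 to 0.812), 0.299 in Stat2 (0.055 to 0.796) and 0.609 in Ifih1 (0.149 to 1.52). For Ifit2 the largest of these differences was smaller than the rise in the highest libraries. For Ifih1 it was nearly as large as the highest value in the screen.

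Across the 393 libraries the 4 genes were only weakly related. Spearman's rho was 0.17 between Ifit2 and Irf9, -0.16 between Ifit2 and Stat2, 0.08 between Ifit2 and Ifih1, -0.12 between Stat2 and Ifih1, and 0.01 and -0.01 between Irf9 and Stat2 and Irf9 and Ifih1. Many of these libraries share a chemical, so the values are descriptions. The genes most like the score were Vim at 0.35, Akap12 at 0.31, Perp, Lgals3bp, Ccnd1 and Cers4 at 0.30, and Lix1l, Snx8, Sepn1 and F2r at 0.29. Of these, Lgals3bp is on the list of interferon-induced effectors.

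Each gene had its own nearest neighbours. Ifit2 was most like Ccng1 (rho 0.49) and then the cyclin gene Ccnd1 and the intermediate filament gene Vim (both 0.47), and its nearest pathway gene was the GTPase gene Igtp (0.34). Irf9 was most like Shh (0.27), and Ifih1 most like Lima1, Tpm4 and F2r (0.24 each). The median of the neuron markers had a rho of -0.30 with Ifit2, -0.20 with Irf9 and 0.24 with Stat2, and that of the microglia markers one of 0.09 with Ifit2.

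The 3 genes nearest to Stat2 were Lss, Acat2 and Mvd, named after their values were seen. Its rho was 0.57 with Lss, which encodes lanosterol synthase of sterol synthesis, 0.55 with Acat2, which acts on acetoacetyl-CoA, and 0.54 with Mvd, which encodes mevalonate diphosphate decarboxylase. Of the 57 libraries of other chemicals above the vehicle range in Stat2, 4 were also above it in Lss (of 6 such libraries in all), 6 in Acat2 (of 6) and 3 in Mvd (of 3). Its nearest pathway gene, H2-K1, had 0.23. Pearson's r between Stat2 and Lss was 0.63, and 0.60 without the 2 libraries farthest from the median of Lss. Within groups rho was 0.34 over vehicle, 0.76 over topotecan and 0.56 over other chemicals.

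Azole fungicides, which inhibit a step of sterol synthesis in fungi, held the highest Stat2 value. Of 14 azole fungicides, grouped after the values were seen, 12 lay above the vehicle median in Stat2 and 7 above the highest vehicle library, from -0.14 for myclobutanil to 1.40 for difenoconazole, whereas 7 lay above the vehicle median in Ifit2 and 0 above its highest vehicle library. Among all 312 libraries of other chemicals, 206 lay above the vehicle median in Stat2. Of the 12 pyrethroids, 4 exceeded the vehicle range in Stat2 and 3 in Ifit2, of which permethrin was highest at 0.93.

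In the count table these 3 genes and Stat2 fell under pyraclostrobin. Lss went from 78.2 ± 16.6 to 29.2 ± 4.72 CPM (SD, n = 4 each), a fall of 1.43 on the log2 scale (SE 0.19, edgeR adjusted p = 0.000257). Acat2 fell by 1.19 and Mvd by 2.30, with edgeR adjusted p of 0.000228 and 0.000172. These 3 genes were chosen for their likeness to Stat2 in the screen, which includes pyraclostrobin 1.

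**Figure D5:**
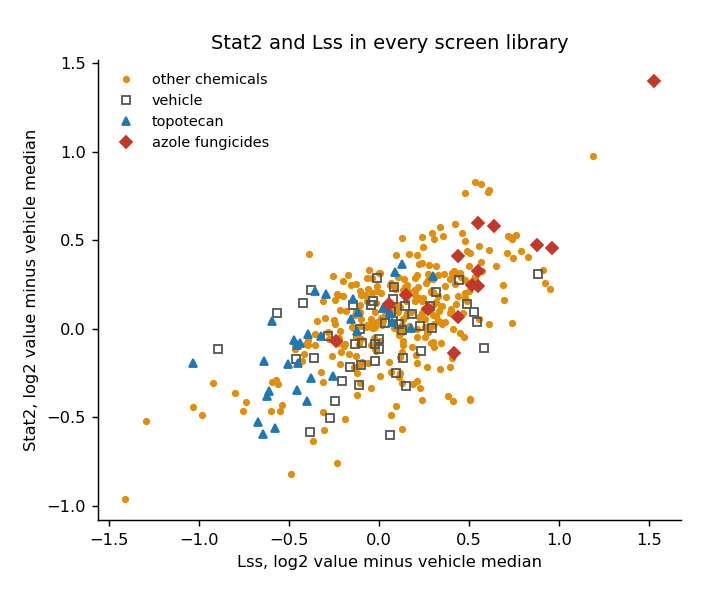
Stat2 against Lss in every screen library, both as the log2 value minus the vehicle median, with vehicle as grey squares, topotecan as blue triangles, 14 azole fungicides as red diamonds and other chemicals as orange dots. Points rise from lower left to upper right (rho 0.57), and difenoconazole is the highest point at 1.40.

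Pyraclostrobin 1 is in both tables and gives the members on both scales. Relative to the mean of the 4 vehicle libraries in log2 CPM, Ifit2 differed by 3.36, Irf9 by 0.69, Stat2 by -0.72 and Ifih1 by 2.54. In the screen the same library had 0.75, 0.28, -0.44 and 0.49 relative to the vehicle median. All 4 genes kept their direction and were nearer to 0 in the screen. Over 12188 genes in both tables the SD of these differences was 1.02 in the counts and 0.434 in the screen, with a slope of 0.369 across genes. The vehicle libraries of the 2 tables are not the same set, although the labels leave at least 1 in both, and the processing differs. The parts of these were not tested, so values of the screen and the count table are not compared in size.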

How the data were processed

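RNA-seq libraries of cortical cultures were analysed from 2 deposited tables. The authors filtered reads with TagDust, aligned them with TopHat to mm9, removed ribosomal RNA reads and counted reads over RefSeq exons by gene symbol, and the deposited counts are raw. The deposited screen values are log10 RPKM deviations that the authors quantile-normalised, centred per gene and freed of culture and sequencing batch by a mixed model. Here these were divided by the log10 of 2 to give log2 values. Their depth is unknown.

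Counts were tested with edgeR 4.0.16 (quasi-likelihood, TMM, at least 10 counts in at least 4 libraries, Benjamini-Hochberg adjusted p under 0.01, R 4.3.3), with DESeq2 1.42.0 as an alternative. Screen values were tested with limma 3.58.1 (variance trend, adjusted p under 0.05), using the median of the libraries of each chemical except for topotecan. CPM values are counts scaled to the library size with its TMM factor, and a pseudocount of 0.5 CPM was used on the log2 scale. Both fits were checked on simulated data. Intervals cover counting error only.

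The members, lists and comparisons were chosen with earlier results of these data known. Named were the members, the libraries with the highest and lowest score, the 10 genes most like the score and, by role, at most 5 pathway genes in each direction past the threshold. Genes outside this rule (the highest libraries for single members, the genes nearest to a single member, and pathway genes named as not passing) were chosen after their values were seen. Promoter windows were matched by gene symbol. The deposited counts of sulforaphane with fenamidone were not used, since all 6 columns bear the same name and could not be assigned to a group. One gene of the pathway lists is not reported here by name.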

Additional observations from a re-analysis of the deposited data

Results flagged for a closer look

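Usp18 in pyraclostrobin 3 stood apart from the other 3 pyraclostrobin libraries. It had 0 counts there and 4, 3 and 3 in the others, so that its gap to the nearest library was 0.830 of the range of the group on the scale of log2 CPM, just past the 95% critical value of Dixon's test for 4 samples. In all, 22 groups were examined, of which chance alone would mark about 1 in 20. Usp18 had 15 counts in all over the 8 libraries.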

How the results depend on the processing

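Ifit2 in the count table kept its direction and call under all alternatives run, with changes of 2.08 to 2.77. The count of genes called between pyraclostrobin and vehicle was 2631, 4301 at an adjusted p under 0.05, and 1682 (without vehicle 3) to 4052 (without vehicle 1) when 1 library was left out. Libraries whose columns carry the same number had correlations of their deviations of 0.389, 0.161, 0.0125 and 0.282. Pyraclostrobin 1 had -0.264, -0.308 and -0.359 with vehicle 2, vehicle 3 and vehicle 4. Pyraclostrobin 2 had 0.242 with vehicle 3 and 0.248 with vehicle 4, above the 0.161 with its own number. The study speaks of matched vehicle controls, and whether these numbers mark that matching is not settled. The main fit therefore had no block. With the replicate number as a block 3135 genes were called, and Stat2 had an edgeR adjusted p of 0.0125 (0.0251 with the block in DESeq2). The block without the filter, the block in DESeq2, the fits without the filter that left out 1 library and the split of complex I and III inhibitors were chosen after seeing the data. Restricting the table to variably expressed genes left 1788 calls for topotecan (6090 before), 785 for complex I and III inhibitors (3580 before, of which 1332 higher, against 462 higher and 323 lower) and 97 for other chemicals (745 before), since fewer genes were tested. At an adjusted p under 0.01 these were 2328 for complex I and III inhibitors and 289 for other chemicals, and complex I inhibitors alone gave 942. Leaving out 1 chemical of the class gave 2813 to 3827 calls. Against all other chemicals in place of vehicle, Stat2 was lower under complex I and III inhibitors, at -0.24 (limma adjusted p = 0.0303). Over vehicle libraries alone the gene most like the score was Fsbp, with a rho of 0.51, and the 10 nearest genes held 0 of the 10 found over all libraries. Of the values for single genes, 183 kept their direction and side of the threshold, 22 lost and 7 gained a call, and none turned. The comparison of sulforaphane with fenamidone and its alternatives were not run. Low counts of Ifit1, Ifit3, Isg15, Irf7, Usp18 and Ifih1 (15 to 62 in all) limit what can be said of them.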
